A study of Mus musculus with 2 samples.

Results

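The cyclins and cyclin-dependent kinases described here are the D-type cyclins Ccnd1, Ccnd2 and Ccnd3, their kinases Cdk4 and Cdk6, the E-type cyclins Ccne1 and Ccne2, their kinase Cdk2, the A-type cyclin Ccna2 and the B-type cyclin Ccnb1. They are 10 of the 53272 genes read, chosen by name as the core of the mammalian cell cycle engine. They were measured in single bone marrow cells of 8-week-old C57BL/6 mice that carry the Fucci reporter, for a study of stem cell quiescence. Fucci joins an orange protein, mKO2, to a fragment of Cdt1 that accumulates in G0 and G1, and a green protein, mAG, to a fragment of geminin that accumulates in S, G2 and M. The 4 sorted gates were mAG+ cells, mKO2neg cells (no orange signal), mKO2low cells and mKO2high cells, with 48 cells each. One library held mAG+ and mKO2neg and the other held mKO2low and mKO2high. The sources used here do not give the surface markers of the sort, the promoter of the reporter or the number of mice, so each gate is 1 sample, the values have no replicate check and no test was run.

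Cyclins are regulatory subunits that rise and fall through the cell cycle, and the kinases are active only when bound to one. D-type cyclins respond to growth factors and, with Cdk4 or Cdk6, start the phosphorylation of the retinoblastoma protein, which frees E2F transcription factors. E2F activity raises the E-type cyclins, which drive entry into S phase with Cdk2. Ccna2 then acts with Cdk2 and Cdk1 in S and G2, and Ccnb1 with Cdk1 drives mitosis. Mouse embryos that lack all D-type cyclins, or both Cdk4 and Cdk6, fail to make enough blood cells.

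Gate totals were 2791584 counts in mAG+, 1608630 in mKO2neg, 1703263 in mKO2low, against 934036 in mKO2high. Median counts per cell were 45177, 24633, 26852 and 14510 in that order of gates. The shallowest cells held 315, 1, 7436 and 0 counts, and 45, 43, 48 and 44 cells held at least 1000. All 48 cells of a gate were kept in the shares of cells at their own depth. The deposited row labels were displaced from their counts by 1 gene, so each gene was read from the row of the gene just before it in GENCODE M21 order. For 10 widely transcribed or blood genes, such as Actb, Malat1 and Kit, that row held 234345 counts in all, against 1069 in the row with the gene's own label and 472 in the row after it. Read in this way, all 4 genes of a blood cell list had counts, with a summed 1304 CPM (counts scaled to the gate's total) in mAG+, 1330 in mKO2neg, 1384 in mKO2low, against 1214 in mKO2high. All 11 stem and early progenitor genes had counts as well, summing to 1755, 2140, 2368 and 2593 CPM in the same order. Among markers of other cells, neutrophil genes summed to 443, 808, 515 and 466 CPM and B cell genes to 175, 76.5, 99.2 and 80.3. Erythroid genes summed to 288, 198, 380 and 281 CPM. Megakaryocyte genes summed to 186, 245, 194 and 424 CPM, with Pf4 at 187 in mKO2high. Monocyte genes summed to 594, 1052, 1048 and 1064 CPM, of which Lyz2 alone gave 590, 1044, 1030 and 1058, with Csf1r, Ly6c2 and Adgre1 at 1.43 CPM or less in every gate. Endothelial genes summed to 99.9, 97.6, 64 and 56.7 CPM, mostly Emcn and Pecam1, with Cdh5 at 0 in every gate. T and NK cell genes summed to 40.8, 30.5, 33.5 and 4.28 CPM, with Cd3e, Cd3g, Trbc2 and Gzma at 0, and stromal genes to 11.5, 4.97, 4.11 and 4.28, with Lepr at 0. The part of other cell types in the differences below was not tested.

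Between mAG+ and mKO2neg, which shared a library, the mitotic and S phase cyclins and the D-type cyclins lay in opposite directions. Ccna2, Ccnb1 and Ccne2 were at least 2-fold higher in mAG+, and Ccnd1, Ccnd2 and Ccnd3 at least 2-fold lower. These are 3 higher and 3 lower among 10 members with at least 10 counts over both gates. Of 12115 genes so measured, 21.2% were at least 2-fold higher and 14.6% at least 2-fold lower. The median log2 ratio over these genes was 0.06. Cdk4, Cdk6, Cdk2 and Ccne1 lay within 2-fold. Between mKO2low and mKO2high, which shared the other library, 0 of 8 measured members were at least 2-fold higher, against 19.6% of 10901 genes. One, Ccne1, was at least 2-fold lower at a log2 ratio of -1.67 (95% counting interval -3.57 to -0.34), against 15% of genes, on 6 counts in mKO2low and 12 in mKO2high that all came from a single cell. The median log2 ratio over all genes in this comparison was 0.05.

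**Figure D1:**
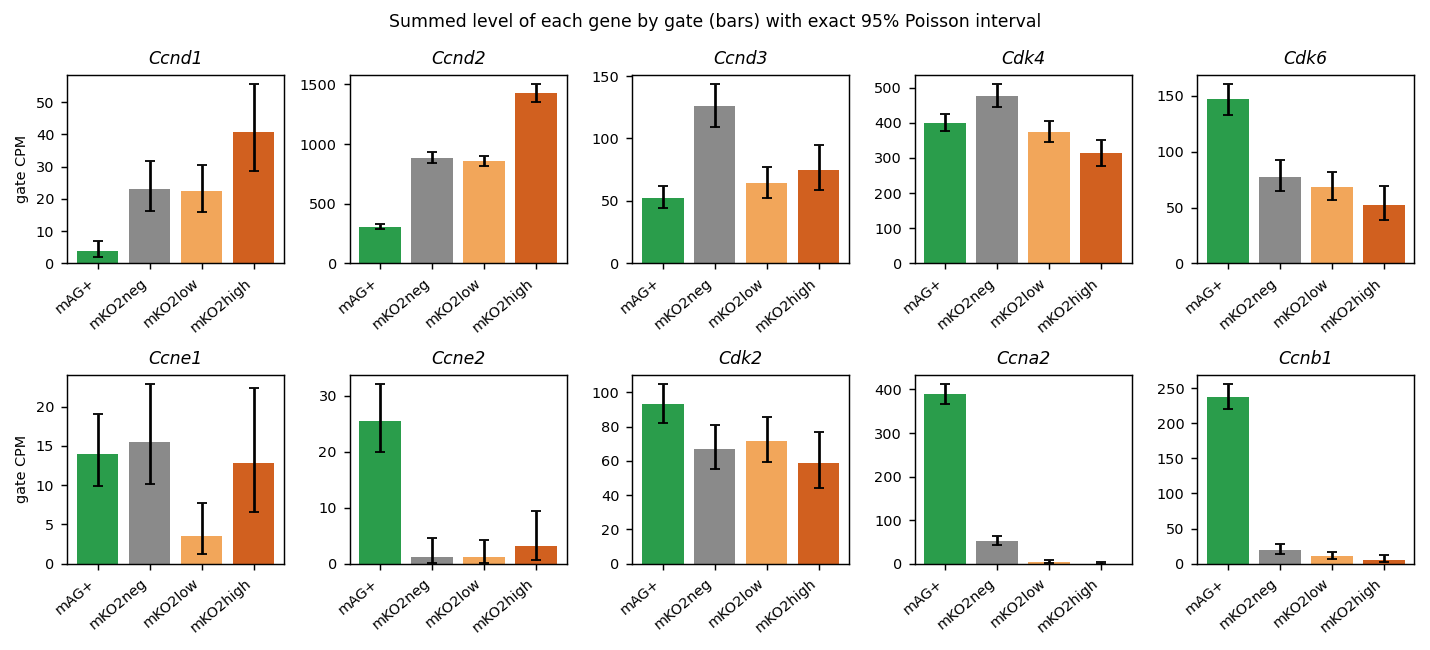
Level of each member in each gate, as CPM of the gate's summed counts on a linear axis that differs between genes (bars), with exact Poisson 95% intervals. Ccna2 and Ccnb1 are highest in mAG+, and Ccnd1 and Ccnd2 are lowest there. Ccna2 had no count in mKO2high.

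Ccnd2 was the most abundant D-type cyclin and was lowest in mAG+ and highest in mKO2high. It had 308 CPM in mAG+ (95% counting interval 287 to 329), 884 in mKO2neg (839 to 931), 857 in mKO2low (814 to 902) and 1429 in mKO2high (1354 to 1508). Only the mKO2neg and mKO2low intervals overlapped. The mAG+ level was 2.87-fold lower than the mKO2neg level, a log2 ratio of -1.52 (-1.65 to -1.40), and at an equal depth of 5000 counts per cell the ratio was -1.44. The mKO2low level had a log2 ratio of -0.74 (-0.85 to -0.63) to mKO2high, or -0.50 at equal depth. The difference was not carried by a few cells: the median cell, among cells with at least 1000 counts, had 263 CPM in mAG+, 617 in mKO2neg, 945 in mKO2low, against 1347 in mKO2high. Single cells reached 948, 2533, 2217 and 3109 CPM, and the lowest was 0 in mAG+, mKO2neg and mKO2low and 132 in mKO2high. At equal depth Ccnd2 was counted in 28 of 45 mAG+ cells, 41 of 43 mKO2neg cells, 45 of 48 mKO2low cells and 38 of 39 mKO2high cells.

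Ccnd1 was scarce in every gate and lowest in mAG+. Its level was 3.94 CPM in mAG+ (1.97 to 7.05; 11 counts), 23 in mKO2neg (16.2 to 31.7; 37 counts), 22.3 in mKO2low (15.8 to 30.6; 38 counts) and 40.7 in mKO2high (28.8 to 55.8; 38 counts). The mAG+ interval lay below the other 3, which overlapped. Counts came from 5, 10, 12 and 6 cells in that order, so no order was read from the number of cells. The log2 ratio of mAG+ to mKO2neg was -2.42 (-3.67 to -1.54), or -1.36 at equal depth, where 1 of 45 mAG+ and 4 of 43 mKO2neg cells had a count. That of mKO2low to mKO2high was -0.85 (-1.55 to -0.18), but 0.48 at equal depth and 0.23 with equal weight for each cell, so its direction depends on how cells are weighed.

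Ccnd3 differed from its relatives in having its highest level in mKO2neg. It had 52.7 CPM in mAG+ (44.5 to 61.9), 126 in mKO2neg (109 to 144), 64 in mKO2low (52.5 to 77.2) and 74.9 in mKO2high (58.4 to 94.7). The mKO2neg interval lay above the others, while those of mAG+, mKO2low and mKO2high overlapped. The largest cell held 12.9%, 15.8%, 29.4% and 42.9% of the Ccnd3 counts in that order of gates, which the intervals do not cover. The log2 ratio of mAG+ to mKO2neg was -1.25 (-1.57 to -0.94), and at equal depth 5 of 45 mAG+ cells and 16 of 43 mKO2neg cells had a count. For mKO2low over mKO2high the ratio was -0.23 (-0.67 to 0.23), but -1.85 at equal depth, where 5 of 48 mKO2low cells and 9 of 39 mKO2high cells had a count. That thinned ratio rests on few counts of a random draw, and with equal weight for each cell the ratio was -0.27.

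**Figure D2:**
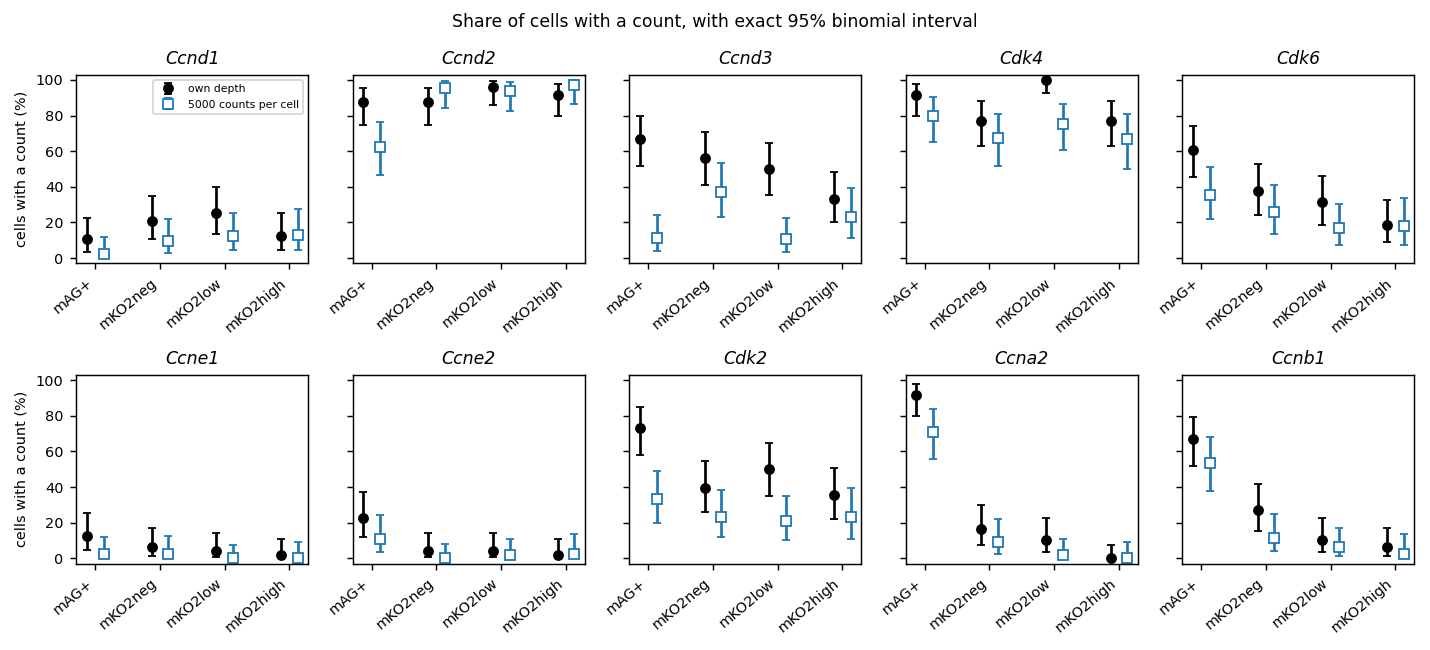
Share of cells with a count of each member, in percent, in the 48 cells of each gate at their own depth (filled circles) and in cells thinned to 5000 counts (open squares), with exact Clopper-Pearson 95% intervals. At equal depth Ccnd2 was counted in 62.2% of mAG+ cells and in 95.3%, 93.8% and 97.4% of the other gates, while Ccnb1 was counted in 53.3%, 11.6%, 6.25% and 2.56%.

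The shares of Ccnd2 and Ccnd3 among the D-type counts differed more between the libraries than between gates of the same library. Ccnd2 gave 84.5% of the D-type counts in mAG+, 85.6% in mKO2neg, 90.9% in mKO2low, against 92.5% in mKO2high. Ccnd3 gave 14.5% (Clopper-Pearson 12.3 to 16.8) in mAG+, 12.2% (10.6 to 13.8) in mKO2neg, 6.78% (5.6 to 8.12) in mKO2low and 4.85% (3.8 to 6.09) in mKO2high. At the cells' own depth the split of Ccnd3 followed the library. Its intervals overlapped within each library and not between libraries, and gate and library cannot be told apart there. At equal depth Ccnd3 had 5, 22, 5 and 17 counts, against 66, 173, 215 and 247 of Ccnd2, in the same order of gates. These counts are few and come from a random draw that was not repeated, so no order of gates was read from them. With equal weight for each cell of at least 1000 counts, the mean was 49.7, 98.2, 62.7 and 75.6 CPM for Ccnd3. For Ccnd2 that mean was 298, 807, 900 and 1319 CPM. Per kilobase of exon, Ccnd2 reached 32.7 CPM in mAG+, 94 in mKO2neg, 91.1 in mKO2low, as against 152 in mKO2high. In that order of gates it was 6, 14.3, 7.29 and 8.54 for Ccnd3 and 0.837, 4.88, 4.74 and 8.64 for Ccnd1. The libraries were enriched for 3′ ends, so division by exon length is only a rough scale between genes.

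Of the kinases of the D-type cyclins, Cdk4 differed little between gates. It had 401 CPM in mAG+ (378 to 425), 477 in mKO2neg (444 to 512), 373 in mKO2low (345 to 404) and 313 in mKO2high (278 to 351). The mKO2neg interval lay above the others, mAG+ overlapped mKO2low, and mKO2low overlapped mKO2high. The log2 ratio was -0.25 (-0.38 to -0.11) for mAG+ over mKO2neg and 0.26 (0.05 to 0.46) for mKO2low over mKO2high, which was -0.28 at equal depth. The deepest mKO2neg cell held 178 of the 767 Cdk4 counts of that gate, and without it the mKO2neg level was 421 CPM. All gates lay within 2-fold of each other, and cells with a count numbered 44 in mAG+, 37 in mKO2neg, 48 in mKO2low, against 37 in mKO2high.

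Cdk6 was highest in mAG+. It had 147 CPM in mAG+ (133 to 161), 77.7 in mKO2neg (64.7 to 92.6), 68.1 in mKO2low (56.3 to 81.7) and 52.5 in mKO2high (38.8 to 69.4). The mAG+ interval lay above the others, and neighbours among the other 3 gates overlapped. The largest cell held 19.1%, 18.4%, 32.8% and 44.9% of the Cdk6 counts in that order of gates. The log2 ratio of mAG+ to mKO2neg was 0.91 (0.62 to 1.22), but -0.06 at equal depth, where 16 of 45 mAG+ cells and 11 of 43 mKO2neg cells had a count. Its log2 ratio of mKO2low to mKO2high was 0.37 (-0.12 to 0.89). Of the counts of both kinases, Cdk4 gave 73.3% (71 to 75.5) in mAG+, 86% in mKO2neg, 84.6% in mKO2low, against 85.6% in mKO2high. Every cell with a Cdk6 count also had a Cdk4 count in mAG+ (29 cells) and mKO2low (15 cells). Cdk4 was counted in 44 of 48 cells in mAG+ and in all 48 in mKO2low, so this overlap was nearly or fully fixed in advance. In mKO2neg 2 of 18 and in mKO2high 1 of 9 cells with Cdk6 had no Cdk4. At equal depth Cdk6 was counted without Cdk4 in 2 of 16 mAG+, 6 of 11 mKO2neg, 2 of 8 mKO2low and 0 of 7 mKO2high cells.

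**Figure D3:**
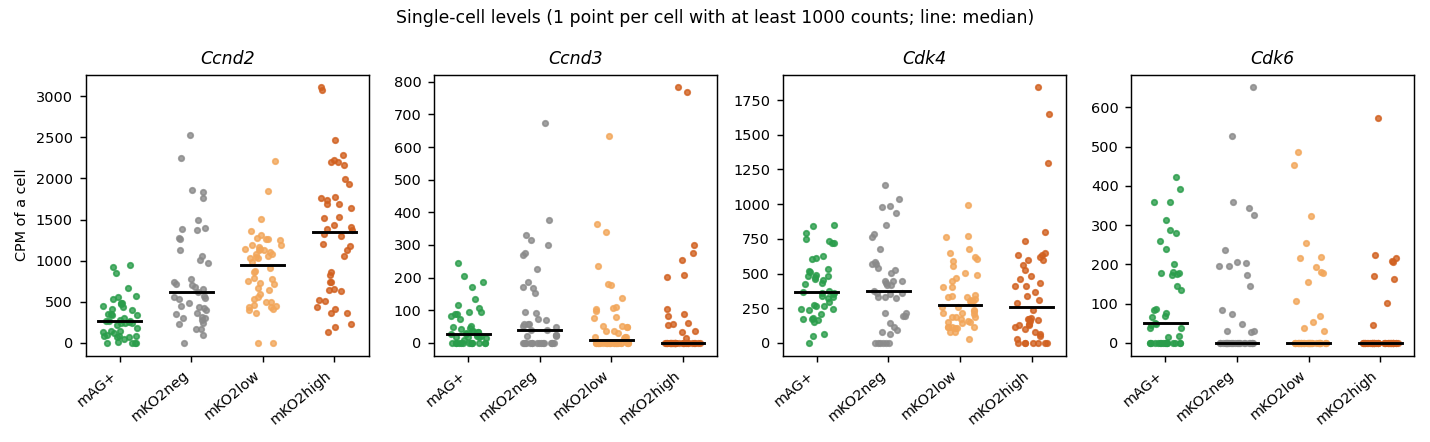
Levels of Ccnd2, Ccnd3, Cdk4 and Cdk6 in single cells with at least 1000 counts, as CPM of the cell on a linear axis, by gate, with 1 point per cell and a line at the median. The median for Ccnd2 is 263 CPM in mAG+ and 1347 in mKO2high, and that for Cdk4 is 367 in mAG+ and 262 in mKO2high.

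The promoter of Cdk4 is shown because it holds 4 copies of CACGTG, the E-box bound by Myc and related factors, in a window of 300 bases. The promoter of Cdk2 follows because it matches both the E2F motif TTTNNCGC and CCAAT, the box bound by NF-Y, and that of Ccnb1 because it holds CCAAT at 2 places. Capitals mark the matches, and all are RefSeq sequences on GRCm38.p6, from 250 bases before to 50 after the start, written 5′ to 3′ on the gene's strand: Cdk4 at chr10:127063285-127063584 (plus), Cdk2 at chr10:128705002-128705301 (minus) and Ccnb1 at chr13:100786437-100786736 (minus).
Cdk4: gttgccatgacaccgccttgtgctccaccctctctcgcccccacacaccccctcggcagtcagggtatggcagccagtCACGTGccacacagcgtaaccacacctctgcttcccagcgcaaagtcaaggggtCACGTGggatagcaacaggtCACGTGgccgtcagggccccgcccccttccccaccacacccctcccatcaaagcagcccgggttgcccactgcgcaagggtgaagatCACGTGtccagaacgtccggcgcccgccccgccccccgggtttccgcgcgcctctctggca
Cdk2: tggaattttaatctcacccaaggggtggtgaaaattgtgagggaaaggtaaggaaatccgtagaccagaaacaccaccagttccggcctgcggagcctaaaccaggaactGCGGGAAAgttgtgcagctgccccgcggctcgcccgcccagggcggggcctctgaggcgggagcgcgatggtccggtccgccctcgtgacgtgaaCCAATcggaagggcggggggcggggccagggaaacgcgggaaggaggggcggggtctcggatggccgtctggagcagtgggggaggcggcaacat
Ccnb1: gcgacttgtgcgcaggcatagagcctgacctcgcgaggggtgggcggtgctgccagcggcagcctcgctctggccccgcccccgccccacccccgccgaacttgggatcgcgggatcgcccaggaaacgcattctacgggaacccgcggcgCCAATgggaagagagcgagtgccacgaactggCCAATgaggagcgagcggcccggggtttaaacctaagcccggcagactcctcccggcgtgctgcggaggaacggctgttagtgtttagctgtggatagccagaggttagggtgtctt
The Cdk4 matches begin 172, 118, 98 and 11 bases before the start. The Cdk2 E2F match, read on the opposite strand, begins 140 bases and its CCAAT 45 bases before the start, and the Ccnb1 CCAAT boxes begin 99 and 67 bases before it. Promoters were matched for 6 of the 10 members: Ccnd3, Cdk4, Cdk6, Ccne1, Cdk2 and Ccnb1. Both strands were searched, and no match overlapped another motif. Over all 32851 promoters, TTTNNCGC was found in 5.17%, CCAAT in 37.4%, CACGTG in 7.15% and TTTGAA, the cell cycle homology region, in 17.9%. Among the 6, TTTNNCGC was found in Cdk6 and Cdk2, CCAAT in Ccnd3, Cdk2 and Ccnb1, CACGTG in Cdk4 and Cdk6, and TTTGAA in 0. CACGTG was added to the search after the sequences had been seen. A match describes letters only.

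The E-type cyclins were rare, and Ccne2 had most of its counts in mAG+. Ccne2 had 71 counts in 11 mAG+ cells, 2 counts in 2 mKO2neg cells, 2 in 2 mKO2low cells, against 3 in 1 mKO2high cell. This corresponds to 25.4 CPM in mAG+ (19.9 to 32.1), 1.24 in mKO2neg (0.151 to 4.49), 1.17 in mKO2low (0.142 to 4.24) and 3.21 in mKO2high (0.662 to 9.39). The log2 ratio of mAG+ to mKO2neg was 3.93, with a wide interval of 2.45 to 7.43. Only the mAG+ interval stood apart from the rest. At equal depth Ccne2 had 6, 0, 1 and 2 counts in the same order of gates.

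Ccne1 showed no such pattern, and its values rest on very few cells. It had 14 CPM in mAG+ (9.93 to 19.1), 15.5 in mKO2neg (10.1 to 22.9), 3.52 in mKO2low (1.29 to 7.67) and 12.8 in mKO2high (6.64 to 22.4). The counts came from 6 mAG+ cells, 3 mKO2neg cells, 2 mKO2low cells and 1 mKO2high cell. The deepest mKO2neg cell, with 210516 counts in all, held 23 of the 25 mKO2neg counts, and without it the level there was 1.43 CPM. The log2 ratio of mAG+ to mKO2neg was -0.15 (-0.91 to 0.63) with all cells and 3.0 when each gate's deepest cell was left out.

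Cdk2, the kinase of the E-type cyclins and of Ccna2, was highest in mAG+ and similar in the other gates, with all gates within 2-fold. It had 93.1 CPM in mAG+ (82.2 to 105), 67.1 in mKO2neg (55.1 to 81.1), 71.6 in mKO2low (59.5 to 85.5) and 58.9 in mKO2high (44.4 to 76.6). The mKO2neg, mKO2low and mKO2high intervals overlapped. The mAG+ interval overlapped that of mKO2low and lay above those of mKO2neg and mKO2high. The log2 ratio of mAG+ to mKO2neg was 0.47 (0.14 to 0.81), and 1.06 when each gate's deepest cell was left out. In mKO2neg, that cell held 44 of 108 Cdk2 counts. Between mKO2low and mKO2high the Cdk2 ratio was 0.28 (-0.19 to 0.77).

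Ccna2 was abundant in mAG+ and was not counted in mKO2high. It had 389 CPM in mAG+ (366 to 413), 52.2 in mKO2neg (41.7 to 64.6), 4.7 in mKO2low (2.03 to 9.25) and 0 in mKO2high (0 to 3.95). No pair of these intervals overlapped except those of mKO2low and mKO2high. At their own depth 44 mAG+ cells, 8 mKO2neg cells, 5 mKO2low cells and 0 mKO2high cells had a count. A value of 0 of 48 allows a share of cells with a count of up to 6.25% (Clopper-Pearson upper limit 7.4%), and 9 of these mKO2high cells held under 5000 counts of any gene. The mAG+ level was 7.44-fold the mKO2neg level, a log2 ratio of 2.89 (2.57 to 3.23). Of the 84 mKO2neg counts, 61 were in the deepest cell of that gate, and leaving out each gate's deepest cell gave a ratio of 4.49. The level without that cell was 16.5 CPM in mKO2neg. With 8 counts in mKO2low and 0 in mKO2high, no ratio was taken between them.

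Ccnb1 had the same order of gates. It had 237 CPM in mAG+ (220 to 256), 19.3 in mKO2neg (13.1 to 27.4), 10.6 in mKO2low (6.26 to 16.7) and 5.35 in mKO2high (1.74 to 12.5). Neighbouring gates overlapped from mKO2neg downward, and mAG+ lay above all. Ccnb1 was 12.3-fold higher in mAG+ than in mKO2neg, a log2 ratio of 3.59 (3.10 to 4.19), and the ratio was 2.76 at equal depth. None of its 31 mKO2neg counts came from the deepest cell of that gate. At equal depth 24 of 45 mAG+ cells, 5 of 43 mKO2neg cells, 3 of 48 mKO2low cells and 1 of 39 mKO2high cells had a count. For mKO2low over mKO2high the log2 ratio was 0.89 (-0.50 to 2.77), which the counts do not separate from 0, and -0.88 with equal weight for each cell.

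**Figure D4:**
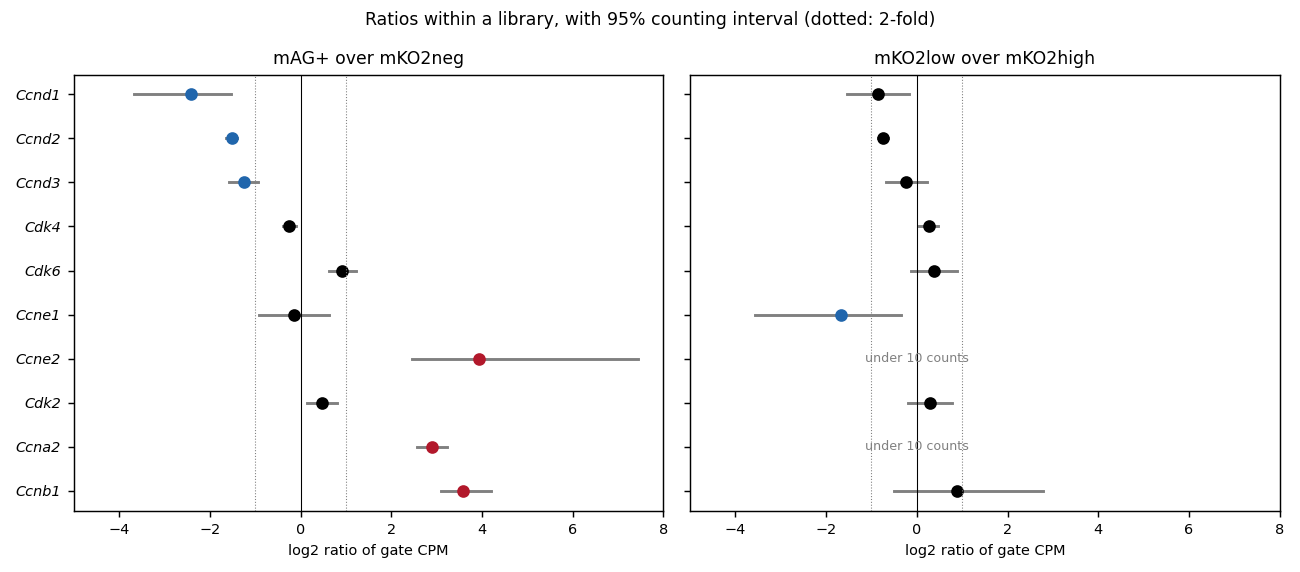
Log2 ratio of gate CPM for each member within each library, with exact conditional binomial 95% intervals (lines) and dotted lines at 2-fold. Red points are at least 2-fold higher, blue points at least 2-fold lower and black points neither. For mAG+ over mKO2neg the ratios run from -2.42 for Ccnd1 to 3.93 for Ccne2, and for mKO2low over mKO2high no measured member is at 1 or above.

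Most mAG+ cells held both later cyclins. Ccnb1 and Ccna2 were both counted in 32 of 48 cells, Ccna2 alone in 12, Ccnb1 alone in 0 and neither in 4. At equal depth the numbers were 21, 11, 3 and 10 of 45 cells. Of the 48 cells, only 45 held at least 1000 counts in all, and 44 of those 45 had a Ccna2 count at their own depth. All 11 Ccne2 cells and all 6 Ccne1 cells of this gate also had Ccna2, which 44 of the 48 cells had. At equal depth 2 cells had both Ccne2 and Ccna2 and 3 had Ccne2 without Ccna2. Of the 11 Ccne2 cells, 4 had Ccnb1 and 7 did not, while 28 cells had Ccnb1 without Ccne2 (this pair was added after values had been seen). At equal depth 0 mAG+ cells had both Ccne2 and Ccnb1, 5 had Ccne2 alone and 24 Ccnb1 alone.

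**Figure D5:**
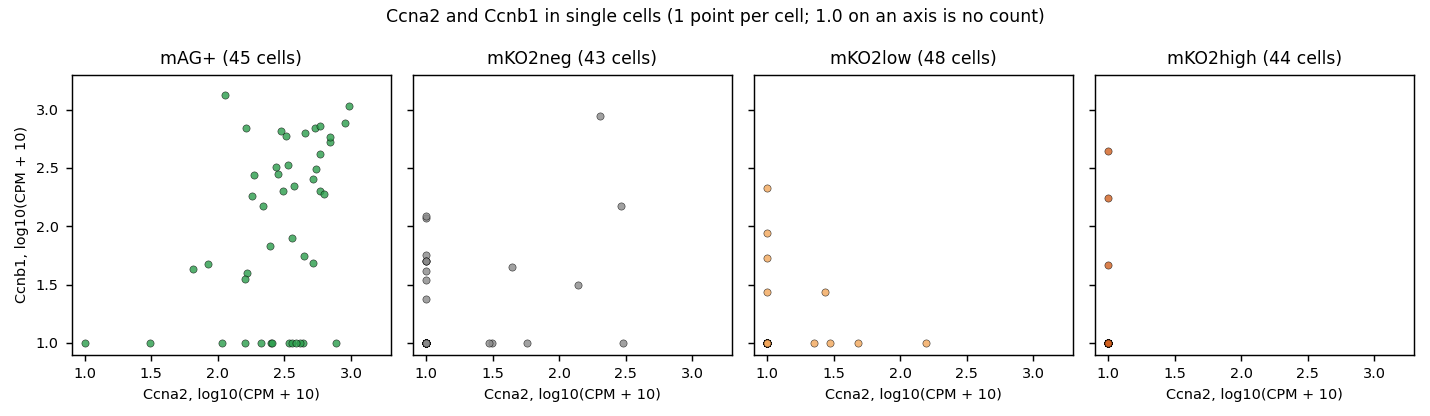
Ccna2 against Ccnb1 in single cells with at least 1000 counts, as log10(CPM + 10), in 45 mAG+, 43 mKO2neg, 48 mKO2low and 44 mKO2high cells, where the lowest value on an axis is no count. mAG+ cells fill the range in which both are counted, and 0 mKO2high cells have a Ccna2 count.

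A D-type cyclin was counted in most cells of every gate, so its overlap with the later cyclins shows no link by itself. In mAG+, 29 cells had both Ccnd2 and Ccnb1, 13 only Ccnd2, 3 only Ccnb1 and 3 neither (a pair added after values had been seen). Ccnd2 was counted in 42 of these 48 cells. At equal depth a Ccna2 or Ccnb1 count was found in 35 of 45 mAG+ cells, 8 of 43 mKO2neg cells, 3 of 48 mKO2low cells and 1 of 39 mKO2high cells. Of these, 11, 0, 1 and 0 had no D-type cyclin count. A D-type count was found in 30, 43, 45 and 38 of all cells at this depth, which included every mKO2neg cell. Every cell with a Ccnd1 count also had Ccnd2, in all gates, but Ccnd2 was counted in 42, 42, 46 and 44 of 48 cells. A median cell held 6 of the 10 members in mAG+, 4 in mKO2neg, 4 in mKO2low, against 3 in mKO2high, at each cell's own depth. At equal depth the medians were 4, 3, 2 and 3 in that order.

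Across libraries, the gate and the library cannot be told apart, and these comparisons share gates with those above. mKO2neg lay at or above mKO2low for most members. Of 9 measured, 2 were at least 2-fold higher, Ccna2 at a log2 ratio of 3.32 (2.43 to 4.73) and Ccne1 at 1.97 (0.82 to 3.72), against 15.3% of 11375 genes, and 0 were at least 2-fold lower, against 16.7%. When each gate's deepest cell was left out, the Ccna2 ratio was 1.58 and Ccne1 was no longer 2-fold higher. The members past 2-fold were Ccnd3 and Ccnb1 at equal depth, and Ccna2 and Ccnb1 with equal weight for each cell. Ccnd2 was at 0.04 and Ccnd3 at 0.97 (0.63 to 1.32). For mAG+ over mKO2high, 4 of 10 members were at least 2-fold higher, against 26.2% of 11849 genes, and 2 were at least 2-fold lower, against 17.1%. The higher ones were Ccna2, at least 121-fold higher at a floor of 3 counts over the mKO2high gate (counting interval's lower limit 6.62 on the log2 scale, which is a smaller fold), Ccnb1 at 5.34 (4.24 to 7.10), Ccne2 at 2.79 (1.38 to 5.30) and Cdk6 at 1.47 (1.05 to 1.94), and the lower ones Ccnd1 at -3.20 (-4.49 to -2.37) and Ccnd2 at -2.21 (-2.34 to -2.09). Cdk6 was at 0.61 at equal depth. Cdk4 was at 0.36 (0.17 to 0.55). The medians over all genes were 0.01 for mKO2neg over mKO2low and 0.12 for mAG+ over mKO2high.

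Other genes of the pathway were counted by list, with no test of a list. Over all genes in mAG+ against mKO2neg, 21.2% were at least 2-fold higher and 14.6% at least 2-fold lower. Of 30 genes of mitosis and of its regulators, which include Foxm1, Mybl2 and subunits of the DREAM complex such as Lin9, 28 were at least 2-fold higher and 0 lower (median log2 ratio 2.83). They included Hmmr, a spindle assembly factor, with 275 CPM in mAG+ and 1.86 in mKO2neg, Prc1, a spindle midzone protein, with 254 and 5.59, and Cenpf, a kinetochore protein, with 756 and 27.4. Of the phosphatases and kinases that switch cyclin-dependent kinases on or off, 10 of 12 were higher and 0 lower (median 2.95). Plk1, which promotes mitotic entry, had 184 CPM in mAG+ and 5.59 in mKO2neg, and Aurka, the centrosomal kinase that activates it, had 249 and 11.8. Mastl had 33 counts and 0. Among other cell cycle cyclins and kinases, 5 of 9 were higher and 1 lower (median 2.22). This list shares Ccnb2 and Cdk1 with the mitosis list, so both genes were counted in each. Ccnb2, a B-type cyclin, had 768 CPM in mAG+ and 92.6 in mKO2neg, and Ccnf, the F-box cyclin, had 140 and 8.08. Cdk5, best known from neurons, had 35.1 and 2.49, while Ccng1, a p53 target, was lower at 30.4 and 75.2. Cdk1, the partner of Ccna2 and Ccnb1, was named here outside the rule after its values were seen. It had 657 CPM in mAG+, 114 in mKO2neg, 22.9 in mKO2low, against 36.4 in mKO2high. In mKO2neg 1 cell held 55.2% of the Cdk1 counts, and the largest share of 1 cell was 38.3% for Ccnb2. It was 80.5% for Birc5 of the mitosis list, and list medians were not recomputed without such cells.

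Of 28 genes of cyclin destruction, 11 were at least 2-fold higher in mAG+ than in mKO2neg and 1 lower (median 0.69), against 21.2% and 14.6% of all genes. Ube2c, the ubiquitin-conjugating enzyme of the anaphase-promoting complex, had 925 CPM in mAG+ and 41 in mKO2neg. Cdc20, the activator of that complex, had 365 and 16.2. Fbxw7, the receptor that targets cyclin E, had 29 and 1.86, and Fbxo4 was lower at 8.6 and 25.5.

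Inhibitors of the kinases lay in both directions between mAG+ and mKO2neg, with 3 of 6 higher and 1 lower (median 0.84). Cdkn3, a phosphatase that acts on kinases of the cycle, had 270 CPM in mAG+ and 18.6 in mKO2neg, Cdkn2d (p19) had 289 and 107, and Cdkn1b (p27) had 27.9 and 10.6. Cdkn1c (p57), known for keeping mouse blood stem cells quiescent, was lower at 36.5 and 95.7 CPM, but 51.9% of its mKO2neg counts came from 1 cell. Of the pocket proteins and E2F factors 4 of 11 were higher and 0 lower (median 0.88), among them the repressors E2f7, with 57.3 CPM in mAG+ and 2.49 in mKO2neg, and E2f8, with 45.9 and 6.84. Rb1, the retinoblastoma gene, was counted 39 times over 5 mAG+ cells and 0 times in mKO2neg. Of E2F target replication genes 14 of 29 were higher and 1 lower (median 0.96), led by Gins3 with 33.7 and 1.86 CPM, while Ung, a uracil glycosylase, was lower at 4.66 and 25.5, on counts in 2 mAG+ and 3 mKO2neg cells with 48.8% of the mKO2neg counts in 1 cell. Of genes upstream of the D-type cyclins 2 of 19 were higher and 2 lower (median -0.05). The lower ones were Mycn, with 50.2 CPM in mAG+ and 282 in mKO2neg, and Myc, with 121 and 249. The transcriptional cyclins and kinases had 3 of 14 higher and 2 lower (median 0.07), and the remaining cyclins and kinases had 0 of 10 higher and 2 lower (median -0.70).

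For mKO2low over mKO2high the largest count was among E2F target replication genes, of which 19 of 27 measured were at least 2-fold higher and 0 lower (median 1.50), against 19.6% and 15% of all genes. Tk1, thymidine kinase, had 32.3 CPM in mKO2low and 2.14 in mKO2high, and Tyms, thymidylate synthase, had 41.7 and 3.21. Each of these was counted in at most 12 mKO2low cells. Of the regulating phosphatases and kinases 5 of 8 were higher and 0 lower (median 1.26), and of the mitosis genes 7 of 19 were higher and 1 lower (median 0.94), with Top2a, a DNA topoisomerase, at 46.4 and 4.28 CPM.

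The other lists had medians nearer to 0 for mKO2low over mKO2high, and several had shares near the 19.6% and 15% of all genes. Other cell cycle cyclins and kinases had 3 of 10 higher and 0 lower (median -0.10). Kinase inhibitors had 1 of 4 higher and 0 lower (median 0.18), that one being Cdkn1a (p21) with 82.8 CPM in 11 mKO2low cells and 19.3 in 4 mKO2high cells. Pocket proteins and E2F factors had 3 of 9 higher and 2 lower (median 0.12), with E2f4, a repressor bound by pocket proteins, at 85.1 and 15 CPM and the pocket protein Rbl2 (p130) at 12.3 and 28.9. Cyclin destruction had 5 of 26 higher and 1 lower (median 0.00), and genes upstream of the D-type cyclins 4 of 17 higher and 0 lower (median 0.39). The transcriptional cyclins and kinases had 4 of 14 higher and 3 lower (median 0.28), and the remaining ones 2 of 11 higher and 4 lower (median 0.04).

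Over 175 cells with at least 5000 counts, the genes most like Ccna2 by Spearman's rho of log2(CPM + 1) included Ckap2l at 0.87, Nusap1 at 0.86, and Cdca3 and Tpx2 at 0.85 each, among 8762 genes. For Ccnb1 they were Cdkn3 at 0.72, Nusap1 at 0.68 and Knstrn, Ckap2l and Plk1 at 0.66. For Ccnd2 they were Aldoa at 0.50, Rps27 at 0.42 and Ifitm1 at 0.41, and no gene reached 0.4 for Ccnd1, Ccnd3, Cdk4 or Cdk6. These cells share libraries and gates, and rho with depth was 0.41 for Ccna2, 0.33 for Ccnb1 and -0.09 for Ccnd2. Within the 45 such mAG+ cells, the closest genes included Ube2c at 0.62 and Kpna2 at 0.61 for Ccna2, and Ube2c at 0.78, Cdc20 at 0.74 and Cks2 at 0.74 for Ccnb1.

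Among the members themselves, rho over the 175 cells was 0.62 for Ccna2 with Ccnb1, -0.49 for Ccnd2 with Ccna2 and -0.38 for Ccnd2 with Ccnb1. Within mAG+ it was 0.39 for Ccna2 with Ccnb1, 0.52 for Ccne1 with Ccne2, -0.50 for Ccne2 with Ccnb1 and -0.35 for Ccne2 with Ccna2. For Ccnd2 the sign differed within mAG+, at 0.17 with Ccna2 and 0.25 with Ccnb1, where the values over all gates were negative. E-type counts lay in at most 11 of those cells, so these values describe few cells.

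All 10 members were read from a row adjacent to their own in the full annotation, on GRCm38. Ccnd1 lies at chr7:144929931-144939925 (minus strand), Ccnd2 at chr6:127125162-127152193 (minus), Ccnd3 at chr17:47505051-47599691 (plus), Cdk4 at chr10:127063534-127067920 (plus) and Cdk6 at chr5:3341485-3531008 (plus). Ccne1 lies at chr7:38097984-38107534 (minus), Ccne2 at chr4:11191351-11204779 (plus), Cdk2 at chr10:128697939-128705031 (minus), Ccna2 at chr3:36564865-36572150 (minus) and Ccnb1 at chr13:100778650-100786570 (minus). Counts were per gene over its exons, so isoforms are not told apart. Annotated genes on the other strand overlap 8 of the 10, and Ccne1 and Ccnb1 overlap none. For Ccna2 the overlapping gene is Exosc9, and for Cdk4 it is Tspan31. The sources used here do not say whether strand was used in counting, so reads of overlapping genes cannot be told apart for these 8.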

How the data were processed

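The authors deposited unnormalized counts, as whole numbers per row and cell, in 2 tables, and a table giving the library and gate of all 192 cells. Per the labels' protocols, single cells went through modified Smart-seq2 with enrichment of 3′ ends. The submitters' processing notes name HISAT2, HTSeq 0.11.3, Seurat and mm10 and no role for them. The sources used here do not give the annotation release, filters or use of molecular identifiers, so reads are not known to be independent molecules and all intervals cover counting error only.

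Of 53378 rows, 53273 matched GENCODE M21 by ID and 105, with 0.222% of counts, did not. Each gene was read from the row of the gene before it. Counts were summed per gate and scaled to CPM. Log2 ratios used a prior count of 1, and a gene was measured with at least 10 counts over both gates. For equal depth, cells were thinned to 5000 counts in a random draw that was not repeated. This left out 3 mAG+, 5 mKO2neg and 9 mKO2high cells. Intervals were exact 95% Poisson, conditional binomial or Clopper-Pearson. Doublets were not called. Python 3.11.15, NumPy 2.4.6, pandas 2.3.3 and SciPy 1.17.1 were used, with edgeR 4.0.16 and DESeq2 1.42.0 for scaling alternatives only. The calculation of ratios was tested on simulated data.

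The members and lists were chosen with earlier results of these data known. Named beyond the members were, per list, direction and comparison, at most 3 genes of largest ratio among those past 2-fold with at least 30 counts, and the most alike genes with rho of at least 0.4. Only a selection of the genes chosen in this way is given: those of the across-library comparisons and many alike genes within mAG+ are left out, and some others are not reported here.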

Additional observations from a re-analysis of the deposited data

How the results depend on the processing

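Alternatives were size factors from DESeq2, TMM factors from edgeR, cells weighted equally, equal depth, no filter on low counts, only cells with at least 1000 gene rows, the deepest cell of each gate left out, the largest cell of each gene left out, a share at 2 counts per cell, and rows as labelled. Of 72 recomputed counts of members past 2-fold, 59 lay within 1.5 times the reported count and 13 did not. Of 297 log2 ratios, 236 stayed within the counting interval, 60 moved further and 1 turned to the other side of 2-fold. The sign changed in 23 of the 297, over 15 pairs of member and comparison. In 1 of these the reported ratio was past 2-fold, and the others include Ccnd1, Cdk4 and Ccnb1 between mKO2low and mKO2high and Ccne1 and Cdk6 between mAG+ and mKO2neg. Of 160 shares, 89 stayed within their interval and 71 moved.

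For mAG+ over mKO2neg, 3 members were higher, and 5 with the deepest cell of each gate left out, when Ccne1 and Cdk2 also passed 2-fold. There were 3 lower, and 1 (Cdk4) with rows as labelled. With equal weight per cell 2 were lower (Ccnd1 and Ccnd2), with Ccnd3 at -0.98. At equal depth 2 of 7 measured were lower (Ccnd2 and Ccnd3) and 2 higher (Ccna2 and Ccnb1), with Ccne2 no longer measured. Ccnd3 turned to a log2 ratio of 1.47 with rows as labelled, which hold the counts of another gene. For mKO2low over mKO2high, 0 were higher, and 1 (Ccna2) without the filter. The 1 lower, Ccne1, became 0 with equal weight per cell, with its largest cell left out and with rows as labelled, and 2 without the filter. At equal depth the 1 lower was Ccnd3 and not Ccne1, on 5 counts in mKO2low and 17 in mKO2high. The Ccnd3 ratio was -0.27 with equal weight per cell. For mKO2neg over mKO2low, 2 were higher (Ccne1 and Ccna2), but Ccna2 and Ccnb1 with equal weight, Ccnd3 and Ccnb1 at equal depth, and Ccnd3, Ccna2 and Ccnb1 with the largest cell left out. There was 1 without the deepest cells and 0 with rows as labelled, where 1 (Ccnd3) was lower. For mAG+ over mKO2high, 4 were higher, and 2 at equal depth and with rows as labelled, where 0 of the 2 lower remained.

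No paired analysis was possible because each gate is 1 sample and the gates share no numbered replicates. Depth limits Ccnd1, Ccne1 and Ccne2, counted in few cells, and the mKO2high gate, in which 3 counts are 3.21 CPM.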
